A study of Mus musculus with 9 samples.

Results

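Expression of 56 genes of the mitotic spindle, the kinetochore and cytokinesis was examined in RNA-seq data from primary mouse lung endothelial cells (MLEC). The genes were chosen by name for their roles in cell division, and each symbol was matched to a locus in the deposited tables. Earlier results of these data were known when the genes were chosen, so counts beside the shares of all genes are descriptive. All 56 were found among 37104 loci, of which 33353 carry a symbol that names a single locus. They fall into 9 classes, namely 11 mitotic kinesins, 11 kinetochore and centromere proteins, 4 proteins of the spindle checkpoint, 2 partners of the anaphase-promoting complex, 8 genes for CDK1, its cyclins and other kinases and phosphatases of mitotic entry and centrosomes, 4 subunits of the chromosomal passenger complex, 7 genes of condensin and the chromosome scaffold, 7 spindle and cytokinesis factors, and 2 transcription factors. The genes lie on 17 chromosomes.

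The study compared 3 groups of MLEC, with 3 libraries in each. E3KO cells came from mice in which Cre recombinase under the endothelial *Cdh5* promoter acts on LoxP alleles of *Jnk1* (*Mapk8*) and *Jnk2* (*Mapk9*). ECtrl cells carried the same Cre with wild-type *Jnk1* and *Jnk2*, and EfCtrl cells had both LoxP genes but no Cre. All 3 groups were also Jnk3-/- (*Mapk10*), so the loss of JNK3 is common to cases and controls, and all mice were C57BL/6J adults aged 10 to 12 weeks. Each library was made from a separate isolation that pooled the lungs of several mice, and the cells were selected with antibody to ICAM2 and grown in culture before RNA was taken, so a library is an average over mice and over every cell left after selection. The values are FPKM (fragments scaled for transcript length and library size), which the authors estimated and deposited for each library. The deposited values carry no fragment counts, so the depth behind a value is unknown.

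Cells divide by condensing their chromosomes, building a spindle of microtubules, attaching each chromosome to it through the kinetochore and splitting the cytoplasm between the daughters. The kinase CDK1 with cyclin B starts this sequence, the spindle checkpoint holds it until every kinetochore is attached, and the anaphase-promoting complex ends it by marking cyclin B and other proteins for destruction. Most of these genes are transcribed mainly in G2 and M phase, and many are repressed in resting cells by the DREAM complex and induced by B-MYB and FOXM1.

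The targeted genes were examined first. *Mapk9* was 44.1, 50.9 and 47.9 FPKM in the ECtrl libraries, 45.5, 42.7 and 47.9 in EfCtrl, and 27.6, 35.1 and 20.7 in E3KO, and it fell by 0.75 ± 0.15 (log2, SE) against the mean of the controls (limma adjusted p = 0.0359). *Mapk8* was 17.0, 15.0 and 17.9 FPKM in ECtrl, 16.7, 14.0 and 15.1 in EfCtrl, and 8.77 and 4.65 in E3KO replicates 2 and 3, but 20.7 in the library labelled E3KO replicate 1, which is above every control library. *Mapk10* was at most 0.270 FPKM in any library. *Mapk8* was thus not reduced in the library labelled E3KO replicate 1, although its *Mapk9* level was below every control. FPKM for a whole gene does not show which alleles a library carries, and whether the label of this library is right was not tested. That library also stood apart in composition, since its FPKM total was 9841810 where the other 8 had 656089 to 908401. In it 96.4% of the total was in 10 symbols, where the others had 40.9% to 56.8%. It also had the most symbols at 0, with 19239 where the others had 16436 to 17964. The median FPKM of the genes tested was 11.7 in this library and 11.9 to 12.9 in the others, so the bulk of its genes were on the same scale. A similar median does not show that its values for single genes are as reliable. Class totals, counts of calls and the single genes whose call changed without it are given further on.

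Endothelial markers were abundant in all 9 libraries. *Cdh5* (VE-cadherin) was between 613 and 943 FPKM, *Pecam1* (CD31) between 643 and 798, and *Icam2*, the antigen used for selection, between 150 and 211. Of 14 endothelial markers, *Vwf* alone was at or under 2.15 FPKM in every library. *Cldn5*, a tight junction protein, fell in E3KO by 0.92 (log2) against the mean of the controls (limma adjusted p = 0.0322). *Emcn*, a sialomucin of capillaries and veins, rose by 0.63 (limma adjusted p = 0.026). The other 11 markers tested did not pass, where 3.26% of all genes were called lower and 1.54% higher. Neither call held against ECtrl or EfCtrl alone, or when any 1 of the E3KO libraries was left out.

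Mitotic genes were lower in E3KO MLEC than in either control. The FPKM of the 56 genes summed to 978, 704 and 637 in the ECtrl libraries, to 800, 621 and 715 in EfCtrl, and to 402, 340 and 378 in E3KO. The lowest control sum was well above the highest E3KO sum, and the E3KO mean of 373 ± 31.2 (SD, n = 3) was 50.3% of the control mean of 743 ± 132 (SD, n = 6). In RNA from a whole culture, fewer dividing cells and less of each transcript per dividing cell cannot be told apart. The level of single genes in E3KO ranged from 17.7% of the control mean for *Cenpp* to 104% for *Ncaph*, with a median of 50.3%. It was under 50% for 27 genes, between 50% and 75% for 25, and 75% or more for 4.

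**Figure D1:**
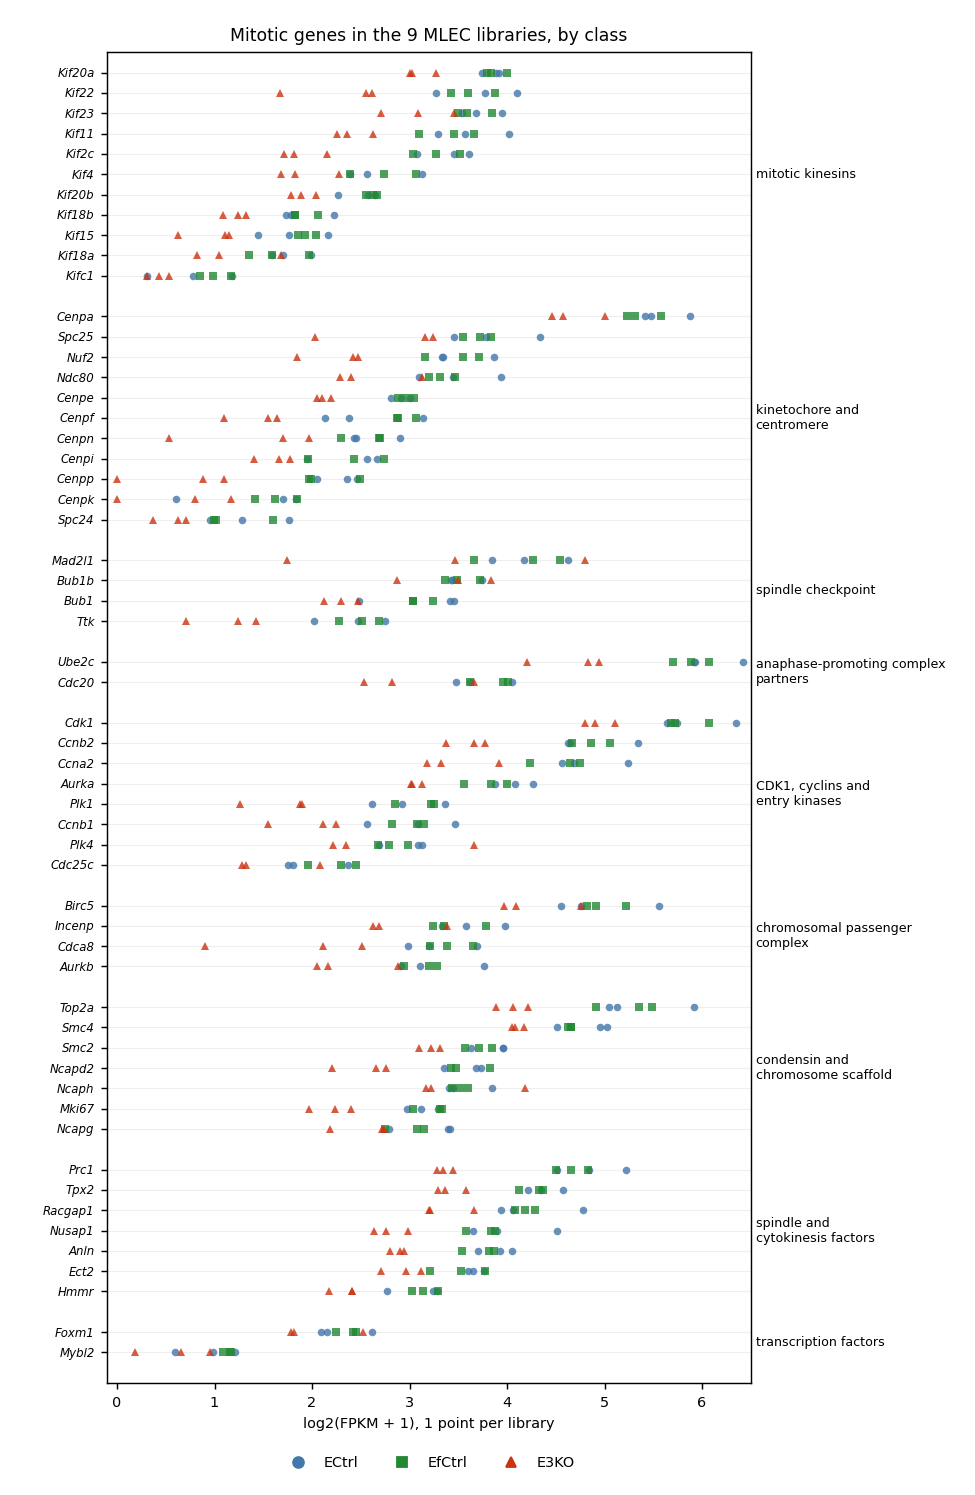
Level of each of the 56 mitotic genes in each of the 9 MLEC libraries, as log2(FPKM + 1), with genes grouped by class and 1 point per library (circles ECtrl, squares EfCtrl, triangles E3KO). The 3 triangles lie to the left of all 6 control points for 42 of the 56 genes, and the scattered triangles of *Mad2l1*, *Bub1b*, *Plk4* and *Ncaph* are the clearest departures.

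The difference was also seen library by library. All 3 E3KO libraries were below all 6 control libraries for 42 of the 56 genes, and for 41 of the 53 that passed a filter of at least 2 FPKM in the mean of some group. Among all 10605 genes that passed it, 11.5% had this arrangement and 5.18% had the opposite one, which 0 of the 53 mitotic genes showed. The library labelled E3KO replicate 1 was below every control for 46 genes, E3KO replicate 2 for 53 and E3KO replicate 3 for 51. Without the first of these, both remaining E3KO libraries lay below all controls for 51 of the 56 genes, against 16.1% of all genes tested. Among the controls, ECtrl replicate 1 had the highest value of its group for 48 genes, EfCtrl replicate 1 was highest in its group for 43, and ECtrl replicate 3 and EfCtrl replicate 2 were lowest in theirs for 41 and 46. In the controls, many mitotic genes were thus high or low in the same isolations, and the spread between the highest and lowest control sums was 978 to 621. Within E3KO this was not so clear, as the library labelled E3KO replicate 1 was highest of its group for 29 genes and lowest for 24. The same arrangement among all genes was not tested.

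Differences were tested with limma on log2(FPKM + 1), with the 3 groups in 1 model, a two-sided test and Benjamini-Hochberg adjustment over the 10605 genes. The added 1 makes a fold change understate the change of low genes. *Kifc1*, *Spc24* and *Mybl2* were under the filter and were not tested. Against ECtrl, 20 of the 53 mitotic genes were lower at an adjusted p under 0.05, where 1.43% of all genes were called lower and 0.82% higher. With only the libraries of these 2 groups in the fit, limma called 0 of them and 0 of all genes (43 mitotic genes at an unadjusted p under 0.05). Against EfCtrl, 11 were lower, with 0.585% of all genes called lower and 0.368% higher. The fit to these 2 groups alone gave 5, and without the filter on low values the calls numbered 7 against ECtrl and 1 against EfCtrl. Against the mean of the controls, 33 of 53 were lower, with 3.26% of all genes called lower and 1.54% higher. No mitotic gene was called higher in any of these comparisons, which share the E3KO libraries and are not independent. Of the 21 genes called against either control, 10 were called against both, and 12 more were called against the mean of the controls alone.

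The median log2 fold change of the 53 genes was -0.90 against ECtrl, -0.85 against EfCtrl and -0.85 against the mean of the controls, where the median of all genes tested was -0.08 in each case. The estimate was negative for 53, 52 and 53 of the 53 genes. Between the control groups, EfCtrl and ECtrl, the median was -0.06 and limma called 0 mitotic genes and 0 of all 10605 genes. At an unadjusted p under 0.05 this comparison gave 0 mitotic genes and 195 of all genes.

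The number of calls depended on single libraries much more than the size of the difference did. Without the library labelled E3KO replicate 1, 32 of the 53 genes were called against the mean of the controls. The number was 17 without E3KO replicate 2, 14 without EfCtrl replicate 1, 10 without EfCtrl replicate 3, and 0 without E3KO replicate 3, where limma called only 9 genes of any kind (3 lower and 6 higher) and 43 mitotic genes were lower at an unadjusted p under 0.05. The median log2 fold change stayed between -0.77 and -0.95 whichever library was left out. The calls among all genes fell as well, from 346 lower to 247 without the library labelled E3KO replicate 1, 200 without E3KO replicate 2, 98 without EfCtrl replicate 1, 153 without EfCtrl replicate 2, 62 without EfCtrl replicate 3 and 3 without E3KO replicate 3. Against ECtrl, the 20 calls became 16 without the library labelled E3KO replicate 1, 0 without E3KO replicate 3 or without EfCtrl replicate 3, 1 without ECtrl replicate 1, 10 without ECtrl replicate 2, 5 without EfCtrl replicate 1, 6 without EfCtrl replicate 2 and 4 without E3KO replicate 2. Against EfCtrl, the 11 calls became 0 without any 1 of the EfCtrl libraries, without the library labelled E3KO replicate 1 or without E3KO replicate 3, 1 without E3KO replicate 2, 2 without ECtrl replicate 2 and 22 without ECtrl replicate 1. The calls given for single mitotic genes of the 53 with all 9 libraries are all among those lost without E3KO replicate 3.

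**Figure D2:**
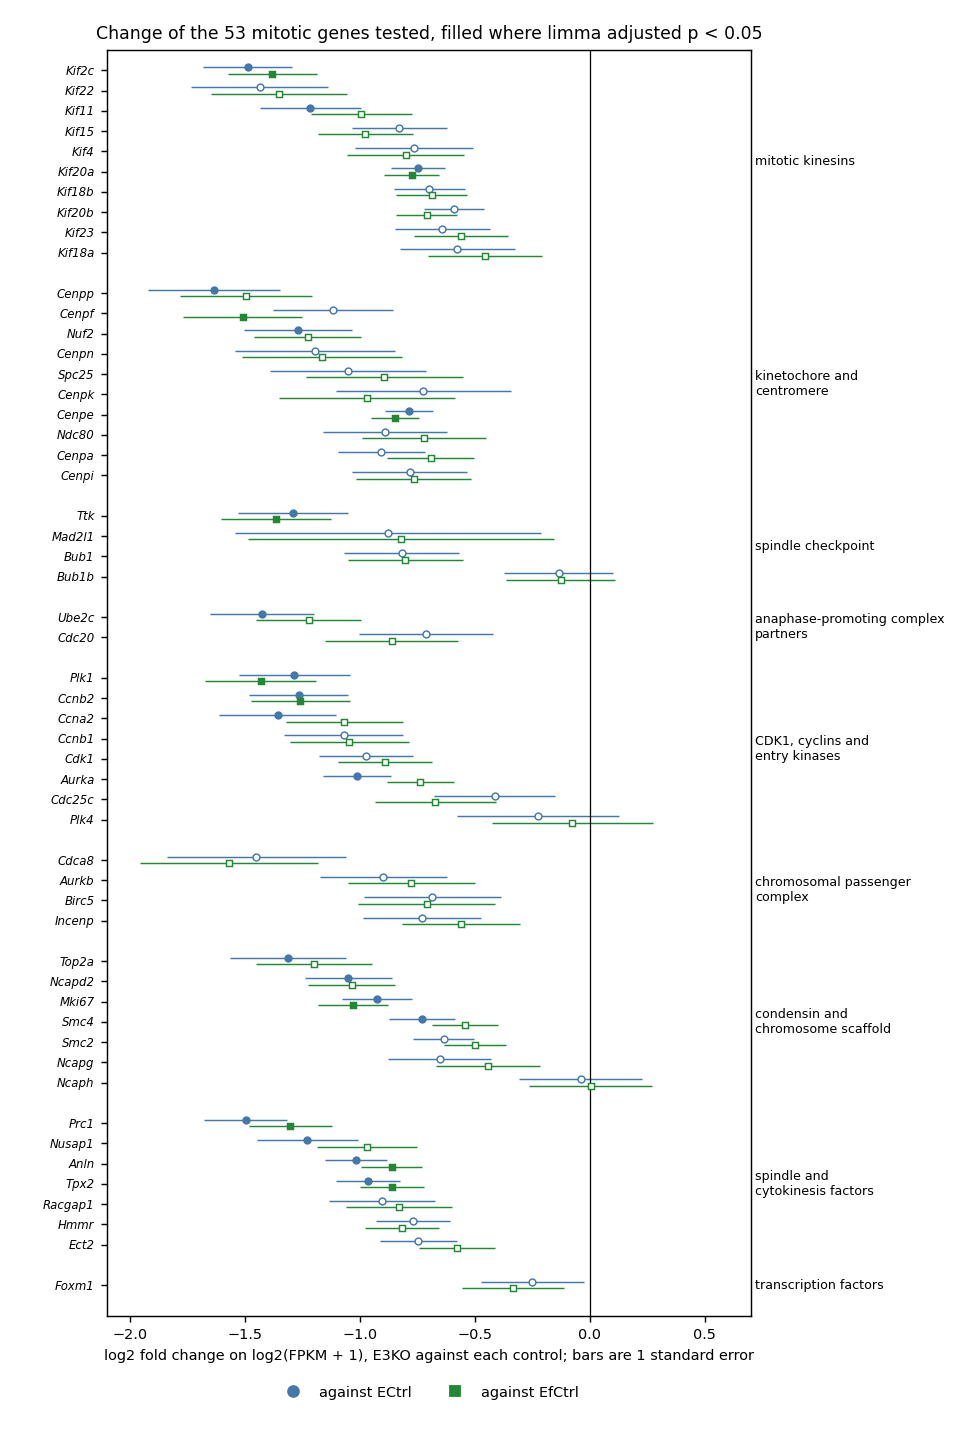
Log2 fold change of the 53 mitotic genes tested, E3KO against ECtrl (circles) and against EfCtrl (squares), on log2(FPKM + 1), with bars of 1 standard error and filled symbols where the limma adjusted p is under 0.05. Nearly all points lie left of 0, and *Ncaph*, *Bub1b*, *Plk4* and *Foxm1* lie nearest to it.

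The promoters of the 56 genes were also examined, whatever their change in E3KO. The short elements known for G2 and M phase genes are the CHR (cell cycle genes homology region), which DREAM and the B-MYB and FOXM1 complexes bind, and the CCAAT box, which NF-Y binds. RefSeq promoter windows of GRCm38.p6, from 250 bases before to 50 bases after a transcription start, were available for 47 of the 56 genes. Stretches of 120 bases around the start are shown for the abundant genes *Cdk1*, *Ccnb2*, *Top2a* and *Ube2c* and for the kinesin *Kif11*, because they hold both elements. Capitals mark matches to the CHR (TTTGAA or its reverse complement TTCAAA) and to the CCAAT box (CCAAT or its reverse complement ATTGG). Positions are counted with the first transcribed base as 0.
*Cdk1* (chr10:69352893-69353012, minus strand): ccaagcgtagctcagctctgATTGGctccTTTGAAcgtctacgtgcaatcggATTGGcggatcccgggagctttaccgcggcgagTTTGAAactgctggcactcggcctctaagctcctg
*Ccnb2* (chr9:70421535-70421654, minus strand): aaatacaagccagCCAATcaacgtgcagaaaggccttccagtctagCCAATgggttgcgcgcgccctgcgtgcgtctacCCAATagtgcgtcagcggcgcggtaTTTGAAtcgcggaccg
*Top2a* (chr11:99024170-99024289, minus strand): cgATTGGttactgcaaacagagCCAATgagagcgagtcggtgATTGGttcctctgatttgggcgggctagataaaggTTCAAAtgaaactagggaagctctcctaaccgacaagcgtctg
*Ube2c* (chr2:164769829-164769948, plus strand): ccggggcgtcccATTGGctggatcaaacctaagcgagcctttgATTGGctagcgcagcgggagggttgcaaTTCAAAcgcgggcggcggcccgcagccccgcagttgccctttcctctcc
*Kif11* (chr19:37376282-37376401, plus strand): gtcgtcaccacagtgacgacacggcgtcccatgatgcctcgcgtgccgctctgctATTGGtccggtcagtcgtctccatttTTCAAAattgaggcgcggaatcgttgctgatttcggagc
Within these stretches, *Cdk1* has CHR matches at -71 and -15 and CCAAT boxes at -80 and -48. *Ccnb2* has 3 CCAAT boxes, at -87, -54 and -21, and a CHR match at 4, just after the start. *Top2a* has CCAAT boxes at -98, -78 and -58 and a CHR match at -23, *Ube2c* has CCAAT boxes at -88 and -57 and a CHR match at -29, and *Kif11* has 1 of each, at -45 and -19. *Ncaph* had the least change with all libraries. Without the library labelled E3KO replicate 1 its log2 fold change was -0.351, and *Mad2l1* (-0.05) and *Bub1b* (-0.348) changed less. The same stretch of *Ncaph* holds neither run of letters, which says nothing of the factors that bind there. The whole windows of *Cenpp*, *Nuf2* and *Nusap1*, which were called lower, hold neither as well, and that of *Bub1b*, which was not called, holds both.
*Ncaph* (chr2:127133935-127134054, minus strand): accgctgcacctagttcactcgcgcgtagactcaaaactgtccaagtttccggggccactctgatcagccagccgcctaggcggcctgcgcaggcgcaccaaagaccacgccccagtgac

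Both elements were frequent among the mitotic genes. A CHR (TTTGAA or TTCGAA, either strand) was found in the window of 34 of 47 genes, or 72.3%, against 21.7% of all 27025 genes with a window. Between positions -60 and 20 it was found in 24 genes, or 51.1%, against 5.53%. A CCAAT box was present in 33 genes, or 70.2%, against 41.1%, and 22 genes, or 46.8%, had 2 or more, against 13.3%. Both elements together were found in 29 genes, or 61.7%, against 8.61%, and 1 pair of CHR and CCAAT matches shared a base. E2F-type sites (TTTGGCGC or TTTCCCGC, either strand), which are known from genes of the G1/S transition, were found in 4 genes (*Kif15*, *Kif18a*, *Ncapd2* and *Ncapg*), or 8.51%, against 1.80%, and a TATA box (TATAAA) in 2, or 4.26%, against 15.7%. A match is a run of letters and not a measured binding site. The genes were chosen for roles in cell division, so these shares say nothing of the change in E3KO.

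Genes with and without a CHR match overlapped in the size of their change. The median log2 fold change against the mean of the controls was -0.93 for the 33 tested genes with a CHR match, 24 of which were called, and -0.83 for the 12 without, 5 of which were called. Genes with a CHR ranged from -1.51 to -0.13 and genes without from -1.56 to -0.02. This is a description of short motif lists and was not tested.

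**Figure D3:**
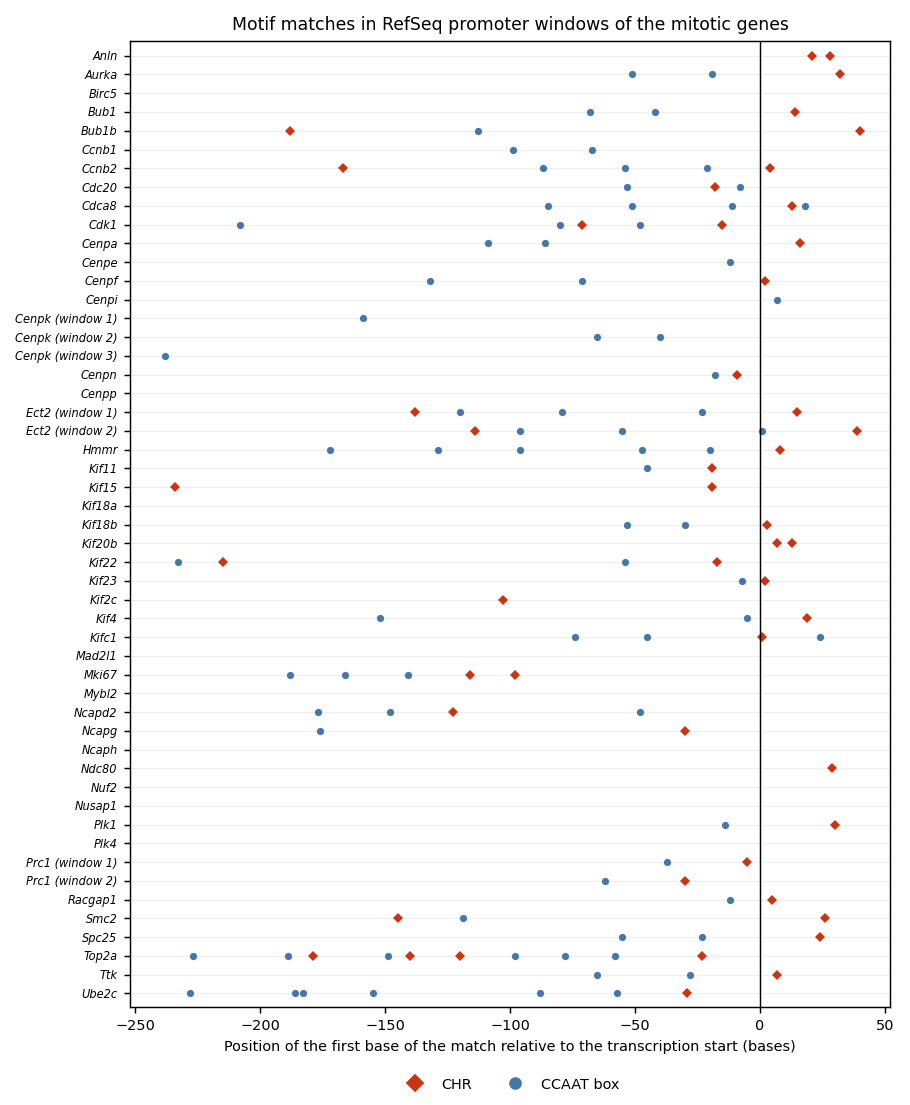
Position of CHR matches (diamonds) and CCAAT boxes (circles) in 51 RefSeq promoter windows of 47 mitotic genes, in bases from the transcription start. Many of the CHR matches gather near the start, with the CCAAT boxes mostly upstream of them.

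The mitotic kinesins move chromosomes and spindle microtubules. Their FPKM summed to 64.9 to 94.8 in the control libraries and to 33.7 to 39.6 in E3KO, or 47.1% of the control mean. Of 10 tested, 3 were lower against ECtrl, 2 against EfCtrl and 7 against the mean of the controls. For this class and those below, the shares of all genes called lower in these comparisons were 1.43%, 0.585% and 3.26%. *Kif20a* (MKLP2, needed for cytokinesis) was the most abundant. Its level was 13.8, 12.4 and 14.1 FPKM in ECtrl, 15.0, 12.8 and 13.3 in EfCtrl, and 8.63, 7.04 and 7.15 in E3KO, with little spread in any group. It fell by 0.75 ± 0.12 (log2, SE) against ECtrl and by 0.78 ± 0.12 against EfCtrl (limma adjusted p = 0.028 and 0.0357), but its locus in the files also spans *Cdc23*, a subunit of the anaphase-promoting complex.

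*Kif2c* (MCAK) is a kinesin that takes microtubules apart at kinetochores and corrects faulty attachments. Its level was 11.2, 7.43 and 9.99 FPKM in ECtrl, 10.4, 7.18 and 8.68 in EfCtrl, and 2.27, 3.46 and 2.52 in E3KO, and its fall was the largest of the class. The log2 fold change was -1.49 ± 0.19 (SE) against ECtrl and -1.38 ± 0.19 against EfCtrl (limma adjusted p = 0.0188 and 0.0317). *Kif22* (Kid), which pushes chromosome arms towards the spindle equator, was 16.2, 8.69 and 12.7 FPKM in ECtrl, 13.7, 9.73 and 11.1 in EfCtrl, and 2.19, 5.14 and 4.87 in E3KO. It was called only against the mean of the controls (log2 fold change -1.39 ± 0.26, limma adjusted p = 0.026). *Kif11* (Eg5), the motor that separates the spindle poles, was 15.3, 10.9 and 8.79 FPKM in ECtrl, 11.7, 7.56 and 9.98 in EfCtrl, and 5.15, 3.77 and 4.12 in E3KO. All E3KO values were below the lowest control, and it fell by 1.22 ± 0.22 (log2, SE) against ECtrl. The change of *Kif18a*, a motor that damps chromosome movement, was the smallest of the class. It was 2.97, 2.02 and 2.24 FPKM in ECtrl, 2.01, 1.56 and 2.92 in EfCtrl, and 2.21, 0.761 and 1.07 in E3KO. Only the library labelled E3KO replicate 1 lay inside the control range, and *Kif18a* did not pass (log2 fold change -0.52, limma adjusted p = 0.197). Leaving that library out gave -0.77 for *Kif18a*, and *Kif18b* (-0.70), *Kif20b* (-0.72) and *Kif15* (-0.74) then changed less. *Kifc1* was at most 1.27 FPKM in any library.

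Kinetochore and centromere genes summed to 88.7 to 140.0 FPKM in control libraries and to 49.8 to 52.9 in E3KO, or 48.3% of the control mean. Of 10 tested, 3 were lower against ECtrl, 2 against EfCtrl and 5 against the mean of the controls. *Cenpa*, the histone H3 variant that marks centromeres, was the most abundant. It was 57.9, 43.4 and 41.5 FPKM in ECtrl, 46.7, 36.7 and 38.7 in EfCtrl, and 31.1, 22.8 and 21.0 in E3KO, and no E3KO library reached the lowest control. It was called against the mean of the controls alone (log2 fold change -0.80 ± 0.16, limma adjusted p = 0.0359).

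*Cenpe*, a kinetochore motor that carries chromosomes to the spindle equator, had the tightest values of the class. It was 5.99, 7.01 and 6.50 FPKM in ECtrl, 7.26, 6.39 and 6.79 in EfCtrl, and 3.14, 3.29 and 3.59 in E3KO. It fell by 0.79 ± 0.10 (log2, SE) against ECtrl and by 0.85 ± 0.10 against EfCtrl (limma adjusted p = 0.0188 and 0.0287). *Cenpp*, a subunit of the constitutive centromere network, was 4.51, 4.13 and 3.14 FPKM in ECtrl and 2.98, 2.91 and 4.62 in EfCtrl. It was listed at 0 in the library labelled E3KO replicate 1 and at 0.837 and 1.13 FPKM in the other E3KO libraries. It had the largest fall against the mean of the controls among all 53 genes (log2 fold change -1.56 ± 0.25, limma adjusted p = 0.0167), but its locus spans 6 other coding genes, among them *Ogn* and *Aspn*, which encode matrix proteins. The rank rests on the library labelled E3KO replicate 1, without which *Cenpp* was at -1.24 and genes such as *Ccna2* (-1.44) fell more.

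*Nuf2* is a subunit of the NDC80 complex, which binds microtubules at the kinetochore. It was 13.6, 9.16 and 9.10 FPKM in ECtrl, 10.7, 7.95 and 12.1 in EfCtrl, and 2.59, 4.56 and 4.36 in E3KO. All E3KO values were below the lowest control. It fell by 1.27 ± 0.23 (log2, SE) against ECtrl and had a log2 fold change of -1.23 ± 0.23 against EfCtrl (limma adjusted p = 0.0386 and 0.0547). *Cenpf*, which links kinetochores to motor proteins, was 7.82, 4.2 and 3.37 FPKM in ECtrl, 7.40, 6.38 and 6.34 in EfCtrl, and 1.15, 2.12 and 1.93 in E3KO. It was called against EfCtrl (log2 fold change -1.51 ± 0.26, limma adjusted p = 0.0448) and not against ECtrl (-1.12 ± 0.26, limma adjusted p = 0.0653). The other subunits of the NDC80 complex were less clear. *Ndc80* was 7.73 FPKM in the library labelled E3KO replicate 1, inside the control range of 7.55 to 14.4, and 4.28 and 3.88 in the other E3KO libraries, while *Spc25* was 3.08 in that library and 8.45 and 7.90 in the others, all below the lowest control at 9.99. Neither passed against the mean of the controls (limma adjusted p = 0.0893 and 0.1). *Spc24* was at most 2.40 FPKM. *Cenpi*, another subunit of the centromere network, had the smallest change of the class tested. It was 5.36, 4.93 and 2.86 FPKM in ECtrl, 5.68, 2.88 and 4.4 in EfCtrl, and 1.64, 2.16 and 2.42 in E3KO, all below the lowest control, and it did not pass (log2 fold change -0.78, limma adjusted p = 0.0822). Leaving out the library labelled E3KO replicate 1 gave -0.67 for *Cenpi*, and *Cenpk* (-0.52) and *Spc25* (-0.58) then changed less.

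Of the 4 spindle checkpoint genes, all had negative log2 fold changes, and differences between them were not tested. Together they summed to 69.3% of the control mean, and 1 was called in each comparison of E3KO with the controls. *Ttk* (MPS1), the kinase that starts checkpoint signalling, was 5.72, 4.56 and 3.07 FPKM in ECtrl, 5.43, 3.84 and 4.69 in EfCtrl, and 0.634, 1.68 and 1.37 in E3KO. It fell by 1.29 ± 0.24 (log2, SE) against ECtrl and by 1.37 ± 0.24 against EfCtrl (limma adjusted p = 0.0392 and 0.0458). *Mad2l1* (MAD2), the inhibitor of CDC20, was 23.6, 17.0 and 13.4 FPKM in ECtrl, 18.2, 11.7 and 22.4 in EfCtrl, and 2.34, 10.1 and 26.9 in E3KO. Its E3KO libraries were thus both the lowest and the highest of the 9, and no difference was called (log2 fold change -0.85 ± 0.58, limma adjusted p = 0.395). Without the library labelled E3KO replicate 1 the log2 fold change was -0.05 (limma adjusted p = 0.955), so its size rests on that library.

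*Bub1b* (BUBR1), the kinase-like partner of MAD2 in the checkpoint complex, was 12.4, 9.72 and 9.84 FPKM in ECtrl, 12.2, 10.2 and 9.31 in EfCtrl, and 13.3, 6.31 and 10.3 in E3KO. The library labelled E3KO replicate 1 was the highest of the 9 and E3KO replicate 2 the lowest. The log2 fold change of -0.13 ± 0.21 did not pass (limma adjusted p = 0.717), and it became 0.13 without E3KO replicate 2. Without the library labelled E3KO replicate 1 the log2 fold change of *Bub1b* was -0.35 (limma adjusted p = 0.321). *Bub1*, its relative, was 4.61 to 9.98 FPKM in the control libraries and 3.37 to 4.56 in E3KO, just below the lowest control, and it also missed the threshold (log2 fold change -0.81, limma adjusted p = 0.0732). *Ube2c*, the ubiquitin-conjugating enzyme that works with the anaphase-promoting complex, had the highest control mean of the 56 genes. It was 84.9, 59.4 and 59.7 FPKM in ECtrl, 66.4, 50.9 and 58.0 in EfCtrl, and 17.5, 27.5 and 29.8 in E3KO. It fell by 1.43 ± 0.23 (log2, SE) against ECtrl and had a log2 fold change of -1.22 ± 0.23 against EfCtrl (limma adjusted p = 0.028 and 0.0525). *Cdc20*, the activator of the complex, was 15.6, 11.3 and 10.1 FPKM in ECtrl, 15.1, 11.3 and 14.6 in EfCtrl, and 11.6, 4.78 and 6.07 in E3KO, with only the library labelled E3KO replicate 1 inside the control range (log2 fold change -0.79, limma adjusted p = 0.113). The locus of *Ube2c* also spans *Tnnc2*, and that of *Cdc20* spans *Elovl1*.

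CDK1, the cyclins and the entry kinases summed to 127 to 206 FPKM in control libraries and to 62.6 to 85.6 in E3KO, or 47.9% of the control mean. Of 8 genes, 4 were lower against ECtrl, 2 against EfCtrl and 6 against the mean of the controls. *Cdk1* was 80.4, 52.5 and 48.8 FPKM in ECtrl, 66.1, 51.8 and 50.4 in EfCtrl, and 33.4, 26.8 and 28.8 in E3KO. All E3KO values were below the lowest control, but ECtrl replicate 1 and EfCtrl replicate 1 widened the spread and it was called against the mean of the controls alone (log2 fold change -0.93 ± 0.18, limma adjusted p = 0.0288).

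*Ccnb2* (cyclin B2) was 39.6, 24.0 and 23.8 FPKM in ECtrl, 32.3, 24.4 and 28.2 in EfCtrl, and 12.7, 9.39 and 11.6 in E3KO. It was called against both controls, with a fall of 1.27 ± 0.22 (log2, SE) against ECtrl and of 1.26 ± 0.22 against EfCtrl. *Ccnb1* (cyclin B1), the other partner of CDK1, was 10.1, 7.48 and 4.92 FPKM in ECtrl, 7.43, 6.04 and 7.86 in EfCtrl, and 1.92, 3.31 and 3.73 in E3KO, and was called against the mean of the controls (log2 fold change -1.06 ± 0.22, limma adjusted p = 0.039). *Plk1*, the kinase that activates cyclin B-CDK1 and builds the spindle poles, showed the largest fall of the class against the mean of the controls. It was 9.26, 6.57 and 5.12 FPKM in ECtrl, 8.35, 6.24 and 8.54 in EfCtrl, and 1.40, 2.68 and 2.72 in E3KO, and it fell by 1.29 ± 0.24 (log2, SE) against ECtrl and by 1.43 ± 0.24 against EfCtrl (limma adjusted p = 0.0394 and 0.0438). Without the library labelled E3KO replicate 1, its log2 fold change against the mean was -1.15, a smaller fall than those of *Ccna2* (-1.44) and *Ccnb2* (-1.35). *Ccna2* (cyclin A2), which acts in S phase and at mitotic entry, had a larger fall than *Plk1* against ECtrl with all libraries. It was 36.9, 24.8 and 22.6 FPKM in ECtrl, 25.8, 17.9 and 24.1 in EfCtrl, and 14.1, 8.09 and 8.98 in E3KO, all below the lowest control. It fell by 1.36 ± 0.25 (log2, SE) against ECtrl and had a log2 fold change of -1.07 ± 0.25 against EfCtrl (limma adjusted p = 0.0394 and 0.0934), but its locus also spans *Exosc9*. *Aurka* (Aurora A), a kinase of the spindle poles, was 10.8 to 18.2 FPKM in the control libraries and 7.10 to 7.74 in E3KO. It fell by 1.01 ± 0.15 (log2, SE) against ECtrl and had a log2 fold change of -0.74 ± 0.15 against EfCtrl (limma adjusted p = 0.0231 and 0.0621).

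*Plk4*, which controls centriole duplication, did not follow the class with all libraries. It was 7.48, 7.75 and 5.46 FPKM in ECtrl, 5.40, 6.93 and 5.93 in EfCtrl, and 11.7, 3.65 and 4.08 in E3KO, so that the library labelled E3KO replicate 1 was the highest of all and the other E3KO libraries the lowest. The log2 fold change was -0.15 ± 0.30 (limma adjusted p = 0.785), and it became 0.11 without E3KO replicate 2 and 0.05 without E3KO replicate 3. Without the library labelled E3KO replicate 1 it was -0.61 (limma adjusted p = 0.0638). *Cdc25c*, a phosphatase that activates CDK1, was 2.37 to 4.46 FPKM in controls and 3.24, 1.51 and 1.43 in E3KO and did not pass either (limma adjusted p = 0.199).

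The chromosomal passenger complex, the kinase Aurora B with its 3 partners, corrects attachments and directs cytokinesis. It summed to 54.9% of the control mean. Of its 4 genes 0 were called by limma against a single control and 1 against the mean of the controls, where 3.26% of all genes were called lower. The most abundant was *Birc5* (survivin), at 46.2, 26.0 and 22.5 FPKM in ECtrl, 36.2, 27.2 and 29.1 in EfCtrl, and 26.0, 14.6 and 16.1 in E3KO. Only the library labelled E3KO replicate 1 lay inside the control range, and the gene did not pass (log2 fold change -0.70 ± 0.26, limma adjusted p = 0.155). *Cdca8* (borealin) was called, with 12.0, 8.21 and 6.90 FPKM in ECtrl, 11.5, 9.44 and 8.24 in EfCtrl, and 0.863, 3.34 and 4.72 in E3KO (log2 fold change -1.51 ± 0.34, limma adjusted p = 0.0445). *Aurkb* itself was 6.53 to 12.5 FPKM in controls and 6.35, 3.14 and 3.48 in E3KO (limma adjusted p = 0.0861). *Incenp*, its scaffold and the smallest change of the 4, was 14.8, 9.05 and 10.9 FPKM in ECtrl, 12.8, 8.47 and 9.23 in EfCtrl, and 9.42, 5.44 and 5.18 in E3KO, with the library labelled E3KO replicate 1 inside the control range (log2 fold change -0.65, limma adjusted p = 0.135).

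Condensin folds mitotic chromosomes, topoisomerase II alpha untangles their DNA, and Ki-67 coats their surface. The class summed to 96.7 to 149 FPKM in control libraries and to 58.5 to 71.6 in E3KO, or 55.8% of the control mean, and of 7 genes 4 were lower against ECtrl, 1 against EfCtrl and 5 against the mean of the controls. *Top2a* was 59.6, 34.0 and 32.1 FPKM in ECtrl, 44.0, 29.2 and 39.9 in EfCtrl, and 17.6, 13.8 and 15.6 in E3KO. It fell by 1.31 ± 0.25 (log2, SE) against ECtrl and had a log2 fold change of -1.20 ± 0.25 against EfCtrl (limma adjusted p = 0.0412 and 0.0692). *Mki67*, which encodes the proliferation marker Ki-67, was 8.80, 7.66 and 6.85 FPKM in ECtrl, 9.10, 7.22 and 8.96 in EfCtrl, and 2.92, 3.69 and 4.29 in E3KO. This gene was called against both controls, with a fall of 0.92 ± 0.15 (log2, SE) against ECtrl and of 1.03 ± 0.15 against EfCtrl (limma adjusted p = 0.0293 and 0.0326).

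Of the condensin subunits, *Ncapd2*, *Smc2* and *Smc4* were called against the mean of the controls, and *Ncapg* and *Ncaph* were not. *Ncapg* had a log2 fold change of -0.55 (limma adjusted p = 0.143). Differences between subunits were not tested. *Ncapd2*, of condensin I, was 11.9, 9.21 and 12.3 FPKM in ECtrl, 13.1, 9.71 and 10.2 in EfCtrl, and 3.60, 5.29 and 5.77 in E3KO (log2 fold change -1.04 ± 0.16 against the mean of the controls, limma adjusted p = 0.0166). *Smc2* and *Smc4*, the ATPase subunits common to condensins I and II, fell by 0.57 ± 0.12 and 0.64 ± 0.12 (log2, SE) against the mean of the controls, and *Smc4*, at 21.8 to 31.6 FPKM in controls and 15.6 to 17.0 in E3KO, was the more abundant. *Ncaph*, also of condensin I, was 13.4, 9.57 and 9.92 FPKM in ECtrl, 11.2, 9.85 and 10.5 in EfCtrl, and 17.2, 8.30 and 7.98 in E3KO. Its highest value was in the library labelled E3KO replicate 1 and its lowest in E3KO replicates 2 and 3, and its log2 fold change of -0.02 ± 0.23 took the opposite sign (0.05) when each library was centred on its median.

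The spindle and cytokinesis factors were the most uniform class, with all 7 genes called against the mean of the controls and the 3 E3KO libraries below all controls for each of the 7. Of all genes tested, 3.26% were called lower in that comparison and 11.5% had all 3 E3KO libraries below all controls. Their FPKM summed to 90.9 to 144 in the controls and to 48.6 to 56 in E3KO, or 46.7% of the control mean. *Prc1*, which bundles the microtubules of the central spindle, was 36.2, 27.6 and 21.9 FPKM in ECtrl, 27.5, 21.6 and 24.2 in EfCtrl, and 8.75, 9.17 and 9.91 in E3KO. It fell by 1.50 ± 0.18 (log2, SE) against ECtrl and by 1.30 ± 0.18 against EfCtrl (limma adjusted p = 0.0188 and 0.0317), and its locus also spans part of *Rccd1*. *Tpx2*, which activates Aurora A on the spindle, was 16.4 to 22.8 FPKM in the control libraries and 8.82 to 11 in E3KO. *Anln* (anillin), a scaffold of the contractile ring, was 15.6, 14.3 and 12.0 FPKM in ECtrl, 13.6, 10.7 and 13.1 in EfCtrl, and 6.67, 5.95 and 6.49 in E3KO. Both were called against both controls, with falls of 0.97 ± 0.14 and 1.02 ± 0.13 (log2, SE) against ECtrl. *Nusap1*, which bundles spindle microtubules, was 21.8, 13.9 and 11.6 FPKM in ECtrl, 13.7, 10.9 and 13.3 in EfCtrl, and 6.89, 5.21 and 5.79 in E3KO. Its values did not overlap between E3KO and the controls. It fell by 1.23 ± 0.22 (log2, SE) against ECtrl and had a log2 fold change of -0.97 ± 0.22 against EfCtrl (limma adjusted p = 0.0354 and 0.0795). *Ect2*, the exchange factor that turns on RhoA at the division plane, had the smallest fall of the class, with 12.6, 11.5 and 11.2 FPKM in ECtrl, 12.7, 8.27 and 10.5 in EfCtrl, and 6.80, 7.65 and 5.52 in E3KO (log2 fold change -0.66 ± 0.14 against the mean of the controls, limma adjusted p = 0.0418).

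The transcription factors that drive these genes were low and were not called. *Foxm1* was 5.11, 3.27 and 3.46 FPKM in ECtrl, 4.35, 4.46 and 3.75 in EfCtrl, and 4.73, 2.52 and 2.43 in E3KO. E3KO replicates 2 and 3 were below every control, the library labelled E3KO replicate 1 was not, and the log2 fold change of -0.29 ± 0.19 did not pass (limma adjusted p = 0.383). The *Foxm1* locus spans further genes and the authors' group values for it were 2.14 to 2.40 times the mean of the libraries, so its level is uncertain. *Mybl2* (B-MYB) was 1.32, 0.506 and 0.983 FPKM in ECtrl, 1.26, 1.24 and 1.12 in EfCtrl, and 0.135, 0.936 and 0.581 in E3KO, too low to test, and the groups overlapped.

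**Figure D4:**
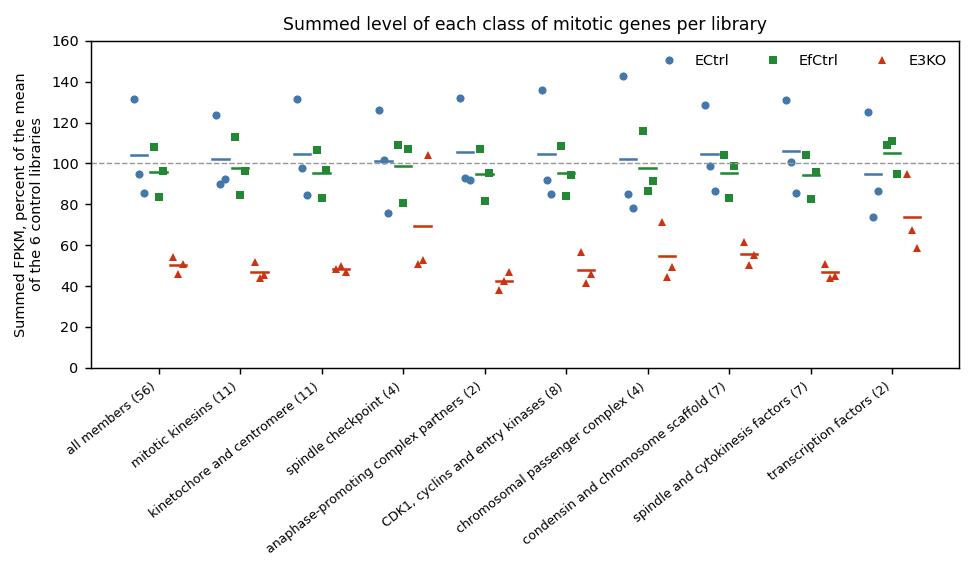
Summed FPKM of each class of mitotic genes in each library, as a percentage of the mean of the 6 control libraries (circles ECtrl, squares EfCtrl, triangles E3KO, short lines group means, number of genes in parentheses). The E3KO means lie between 42.5% and 73.6%, with 1 E3KO library above 100% for the spindle checkpoint because of *Mad2l1* in E3KO replicate 3.

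Without the library labelled E3KO replicate 1, the 56 genes summed to 48.4% of the control mean. The class sums were 44.8% for the mitotic kinesins, 48.2% for kinetochore and centromere genes, 78.4% for the spindle checkpoint, 44.7% for the partners of the anaphase-promoting complex, 43.5% for CDK1, cyclins and entry kinases, 46.8% for the chromosomal passenger complex, 52.8% for condensin and the chromosome scaffold, 44.6% for spindle and cytokinesis factors and 63.0% for the transcription factors. The spindle checkpoint was then the least reduced class, where with all libraries it was the transcription factors at 73.6%.

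The calls against the mean of the controls were mostly shared, with 28 genes called both with and without this library. *Ccnb1*, *Ect2*, *Kif15*, *Kif18b* and *Smc2* were called only with it, and *Aurkb*, *Cdc20*, *Kif23* and *Ndc80* only without it. Of the genes for which this library alone lay inside the control range, *Cdc20* had a log2 fold change of -1.12 and *Ndc80* of -1.07 without it (limma adjusted p = 0.0297 and 0.0389), while *Birc5* (-0.94), *Incenp* (-0.89), *Cdc25c* (-0.80), *Kif18a* (-0.77) and *Foxm1* (-0.53) did not pass (limma adjusted p = 0.0861, 0.0594, 0.068, 0.0638 and 0.0914). *Plk4*, *Ncaph* and *Bub1b*, for which this library was the highest of the 9, became -0.61, -0.35 and -0.35 and did not pass either (limma adjusted p = 0.0638, 0.179 and 0.321). The differences in calls between these fits were not themselves tested.

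Of the 56 genes, 14 lie in a locus that spans another protein-coding gene in whole or in part. A shared locus does not mean a shared value. *Cdc23*, in the locus of *Kif20a*, has an entry of its own, with a control mean of 27.1 FPKM and E3KO at 99.1% of it. *Oip5*, in the locus of *Nusap1*, also has its own entry. Whether reads of neighbouring genes enter the values of the mitotic genes was not tested. Of the 10 genes called against both controls, *Cenpe*, *Kif2c*, *Ttk*, *Plk1*, *Ccnb2*, *Mki67*, *Tpx2* and *Anln* do not share their locus in this way, while *Kif20a* and *Prc1* do.

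Genes outside the 56 were compared by lists that follow textbook function, also chosen with earlier results of these data known. Counts are against the mean of the controls, where 3.26% of all genes tested were called lower and 1.54% higher. Of 51 other mitotic genes tested, 20 were lower (11 against ECtrl alone and 5 against EfCtrl alone) and 0 higher, with a median log2 fold change of -0.74. The largest falls among the calls were those of *Cdca3* (-1.31), *Cep55* (-1.30), which acts in the last step of cytokinesis, and *Cdca2* (-1.29), a chromatin partner of a phosphatase of mitotic exit. *Zwint*, a kinetochore protein and the most abundant of the list, was 132 to 148 FPKM in the control libraries and 129 to 160 in E3KO, with a log2 fold change of 0.05 (limma adjusted p = 0.749). The calls in this list numbered 17 without the library labelled E3KO replicate 1, 7 without E3KO replicate 2 or without EfCtrl replicate 1, 12 without EfCtrl replicate 2, 13 without ECtrl replicate 2, 5 without EfCtrl replicate 3 and 0 without E3KO replicate 3, fits in which fewer of all genes were called too.

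Relatives of the mitotic genes with other roles gave other values. Of 14 genes for subunits and regulators of the anaphase-promoting complex, which cells also use outside mitosis, 1 was lower (*Anapc5*, log2 fold change -0.44, limma adjusted p = 0.0398), and their median was -0.08. The *Anapc5* call was lost when any 1 of the 9 libraries was left out, and 0 of the 14 were called against ECtrl or EfCtrl alone. The list holds core subunits and also *Fzr1* (CDH1), a co-activator, and *Fbxo5* (EMI1), an inhibitor, with log2 fold changes of -0.58 and -0.82 that did not pass (limma adjusted p = 0.0853 and 0.203). Limma called 0 of 9 cohesin genes, with a median of -0.05, and 0 of 16 transport kinesins, with a median of 0.03. The most abundant genes of these lists, *Rad21* and *Kif5b*, had log2 fold changes of -0.25 and 0.34 (limma adjusted p = 0.126 and 0.247).

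Genes of the G1/S transition and DNA replication lay between. Of 30 tested, 4 were lower (*Mcm5*, *Pcna*, *Mcm6* and *Rfc4*), and the median log2 fold change was -0.46. Against ECtrl alone 2 were lower, and against EfCtrl alone 0. *Pcna*, the sliding clamp of DNA polymerase, was 12.2 to 15.4 FPKM in controls and 6.81, 9.69 and 6.83 in E3KO, and fell by 0.73 ± 0.13 (log2, SE; limma adjusted p = 0.0248). *Mcm6*, of the replicative helicase, was 21.9 to 32.3 FPKM in the control libraries and 14.8 to 17.3 in E3KO. The calls numbered 1 without EfCtrl replicate 1, 2 without ECtrl replicate 1 or without EfCtrl replicate 2, and 0 without EfCtrl replicate 3 or E3KO replicate 3. Of 17 genes for DREAM, E2F and RB family proteins, 1 was lower (*Tfdp2*, log2 fold change -0.52, limma adjusted p = 0.0222), a single call beside the 3.26% of all genes called lower, with a median of -0.35, and the calls of this list became 0 without E3KO replicate 2 or 3 or EfCtrl replicate 1 or 3, and 3 without ECtrl replicate 3. Against ECtrl or EfCtrl alone, 0 of these 17 were called. *Rbbp4*, the most abundant of them, had a log2 fold change of -0.09 (limma adjusted p = 0.709).

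Among 17 genes for CDK inhibitors and p53 targets, 3 were higher and 0 lower in E3KO against the mean of the controls, where 1.54% of all genes were called higher and 3.26% lower. Against ECtrl alone 1 was higher and 1 lower, and against EfCtrl alone 0 were called. *Cdkn1a* (p21), an inhibitor of cyclin-dependent kinases and the most abundant of the list, was 150, 195 and 224 FPKM in ECtrl, 192, 213 and 171 in EfCtrl, and 252, 332 and 375 in E3KO. *Mdm2*, the ubiquitin ligase of p53 and itself a p53 target, was 56.5, 85.2 and 75.1 FPKM in ECtrl, 72.0, 89.0 and 67.8 in EfCtrl, and 129, 132 and 186 in E3KO. *Cdkn2b* (p15), an inhibitor of CDK4 and CDK6, was 52.6 to 77.1 FPKM in controls and 91.3 to 106 in E3KO. In each of the 3 genes every E3KO library was above every control, and the rises against the mean of the controls were 0.73 ± 0.17, 0.99 ± 0.18 and 0.62 ± 0.14 (log2, SE; limma adjusted p = 0.0495, 0.0241 and 0.0443). Of the 17 genes, 4 had all E3KO libraries above every control and 4 had all below, against 5.18% and 11.5% of all genes. The estimate was negative for 7 of the 17, down to -1.17.

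The list was not uniform, however. *Cdkn1b* (p27) was 16.4 to 27.4 FPKM in the control libraries and 12.0 to 14.8 in E3KO and fell by 0.72 ± 0.14 (log2, SE) against ECtrl (limma adjusted p = 0.0462), a call that held in 5 of 17 alternatives and was lost, among others, without E3KO replicate 3 and with only the groups compared. *Trp53* itself had a log2 fold change of -0.04 (limma adjusted p = 0.857). Against the mean of the controls *Cdkn1b* missed the threshold (log2 fold change -0.53, limma adjusted p = 0.0502) and was called lower with a pseudocount of 5, a filter of 5 FPKM or a mean-variance trend, and without ECtrl replicate 2, where *Sesn1*, a p53 target, was called lower too. The 3 higher calls became 2 without the library labelled E3KO replicate 1, 1 without E3KO replicate 2, EfCtrl replicate 2, ECtrl replicate 1 or ECtrl replicate 2, and 0 without E3KO replicate 3, EfCtrl replicate 1 or EfCtrl replicate 3. Without ECtrl replicate 3, *Cdkn2b* was not called and *Cdkn1c* (p57) was called higher beside *Mdm2* and *Cdkn1a*. With a pseudocount of 0.1 or without the filter on low values, *Mdm2* alone was called.

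**Figure D5:**
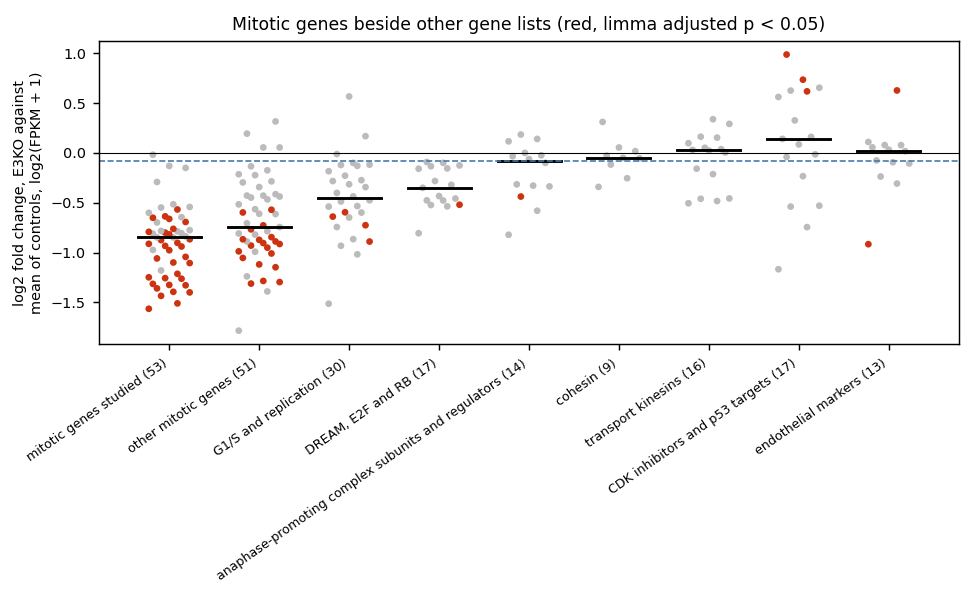
Log2 fold change of E3KO against the mean of the controls on log2(FPKM + 1), for the 53 mitotic genes tested and for 8 other lists, with 1 point per gene, red where the limma adjusted p is under 0.05, a bar at each median and a dashed line at the median of all genes (-0.08). The medians run from -0.85 for the mitotic genes through -0.74, -0.46 and -0.35 for other mitotic, replication and DREAM, E2F and RB genes to between -0.08 and 0.14 for the remaining lists.

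Markers of other cells that could remain after selection were also read. Macrophage and leukocyte markers summed to 84.4, 180 and 158 FPKM in ECtrl, 222, 299 and 182 in EfCtrl, and 236, 335 and 367 in E3KO. Most of this was *Lyz2*, with control values of 28.0 to 191 FPKM and E3KO values of 133 to 221, while *Ptprc* (CD45) was at most 1.59 and *Cd3e* was at 0 in all libraries. Of the 7 markers tested among 15, limma called 0, and their median log2 fold change was 0.80. Without the library labelled E3KO replicate 1, *Cd68*, a lysosomal protein of macrophages, was called higher (log2 fold change 1.24, limma adjusted p = 0.0261). Fibroblast, smooth muscle and pericyte markers summed to 13.5, 49.2 and 39.0 FPKM in ECtrl, 28.1, 68.8 and 83.4 in EfCtrl, and 12.5, 20.1 and 26.6 in E3KO. *Acta2* (smooth muscle actin) was the most abundant, *Pdgfrb* was at most 0.440 FPKM, and of the 6 tested among 13 limma called 0, with a median of -1.09. In other fits 1 of them was called lower, namely *Acta2* without ECtrl replicate 1 (log2 fold change -1.69, limma adjusted p = 0.0468) and *Col1a1* without EfCtrl replicate 1 (-1.65, limma adjusted p = 0.0429).

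Among the controls, the mitotic sums of 978, 704, 637, 800, 621 and 715 FPKM (ECtrl replicates 1 to 3, then EfCtrl) stood beside macrophage marker sums of 84.4, 180, 158, 222, 299 and 182 FPKM. The highest mitotic sum met the lowest macrophage sum and the lowest met the highest, but EfCtrl replicate 1 was the second highest of the controls in both and ECtrl replicate 3 the second lowest in both. The E3KO libraries, lowest in mitotic genes, included the 2 highest macrophage marker sums. Sums of fibroblast and smooth muscle markers were also lowest among the controls in ECtrl replicate 1, but the lowest of all was in the library labelled E3KO replicate 1. The library labelled E3KO replicate 1 had 51.5 FPKM of lung epithelial markers, where the other 8 had 3.15 to 6.16, and of this *Scgb1a1*, a secreted protein of club cells, made up 46.2, with *Epcam* at 1.79 and *Nkx2-1* at 0. Lymphatic endothelial markers were high in all groups, led by *Lyve1* at 1513 to 2050 FPKM, and of 6 tested *Prox1* and *Reln* were lower in E3KO (log2 fold change -0.99 and -0.96, limma adjusted p = 0.0131 and 0.0167), with 0 called without E3KO replicate 3. The part of these cells in the values of the mitotic genes was not tested.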

How the data were processed

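MLEC libraries of the 3 genotypes were grouped by their GEO titles and genotypes, with replicate numbers from the titles. The authors aligned paired reads to mm10 with TopHat and Bowtie, estimated transcript levels with Cufflinks (version 1.0.3 in the submitters' processing notes) and compared groups with Cuffdiff. The deposited unit is FPKM, given by the authors for each library and each group. Whether strand was used is not given in the sources used here. The tables also hold the authors' fold changes, test statistics, p-values and q-values, which were not used. Values repeated between the 3 tables were identical in 12 of 12 columns compared.

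Loci whose symbol names several loci (3749) and 2 loci without FPKM were left out. The 10605 genes whose mean reached 2 FPKM in some group were analysed as log2(FPKM + 1) with limma 3.58.1 in R 4.3.3, with 3 groups in the model, default moderation and Benjamini-Hochberg adjustment (threshold 0.05). Contrasts were E3KO against ECtrl, against EfCtrl and against the equally weighted mean of both, and EfCtrl against ECtrl. The code was tested on simulated data for E3KO against the mean of the controls over 10605 genes. It called 76% of genes changed by 1 on the log2 scale, 89% of those changed by 2, and 5 unchanged genes. The simulation raised low means to a floor and drew independent noise for each gene and library. Its rates therefore do not describe low genes, genes that vary together or a library that stands apart. The study's own test, Cuffdiff, needs the reads, and these were not analysed here.

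The 56 genes and all other lists were chosen with earlier results of these data known. Values in every library are given for *Mki67*, *Top2a*, *Ccnb1*, *Cdk1*, *Foxm1*, *Mybl2* and, in each class, the most abundant gene, those with the largest fall and the largest rise (or smallest fall) against the mean of the controls, and up to 3 called genes with the largest change; other lists are represented by their most abundant gene and up to 3 calls. The library values of *Cenpe* were chosen after they were seen, as were genes named beyond this rule, such as *Cdkn1b*, *Trp53*, *Sesn1*, *Fzr1*, *Fbxo5* and most of the cell type markers. Loci were compared with GENCODE M21, which is on the same build, and promoter windows came from RefSeq (GRCm38.p6). Alternatives covered the pseudocount, the filter, centring, a mean-variance trend, the groups in the fit, the replicate number as a block and the omission of each library. Those for the other lists, and the class totals without the library labelled E3KO replicate 1, were chosen after seeing the data. Isolations were separate, so p-values measure the spread between isolations. Scripts ran under Python 3.11.15 with pandas 2.3.3, numpy 2.4.6 and matplotlib 3.10.9.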

Additional observations from a re-analysis of the deposited data

How the results depend on the processing

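Direction was stable and the number of calls was not. For the mitotic genes against the mean of the controls, the median log2 fold change was -0.56 with a pseudocount of 5, which shrinks low genes by construction, and -0.77 to -0.95 with single libraries left out. The 33 calls became 0 to 32 with single libraries left out, the 20 against ECtrl became 0 to 16 and the 11 against EfCtrl became 0 to 22. Without the filter on low values, which raises the number of genes tested to 20429, calls numbered 7 against ECtrl, 1 against EfCtrl and 24 against the mean. A pseudocount of 0.1 gave 7 against EfCtrl. With only the libraries of the groups compared, limma called 0 against ECtrl (43 at an unadjusted p under 0.05) and 5 against EfCtrl. The cause of these shifts was not tested beyond the smaller number of samples or larger number of genes in each fit. Centring each library on its median gave 19, 11 and 29 calls, all lower, and changed the split of all calls against the mean of the controls from 346 lower and 163 higher to 268 lower and 209 higher. On the authors' group FPKM, which scale libraries differently, the median E3KO level of the mitotic genes was 55.3% of the mean of the control groups.

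Replicate numbers did not pair the samples: deviations of same-numbered libraries correlated between -0.0395 and 0.123, with 2 of 9 pairs over 0.1. With the replicate block, calls against ECtrl and EfCtrl numbered 0 and 0 (46 and 45 at an unadjusted p under 0.05), and calls against the mean of the controls numbered 23. In the other lists, the block gave 12 calls (20 without it) among other mitotic genes, 0 (4 without it) for G1/S and replication, and 0 for DREAM, E2F and RB, the anaphase-promoting complex and endothelial markers, so that the calls of *Tfdp2*, *Anapc5*, *Cldn5* and *Emcn* were lost. Those of *Cdkn1a* and *Cdkn2b* were also lost, *Ccng1* was called higher beside *Mdm2*, and *Col1a2* was called lower (log2 fold change -1.61, limma adjusted p = 0.0334). The median log2 fold change was the same with the block, since the design is balanced.

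Of the 53 genes tested, 50 kept a negative log2 fold change against the mean of the controls in every alternative. With single libraries left out, *Bub1b* ran from -0.35 (without the library labelled E3KO replicate 1) to 0.13 (without E3KO replicate 2), *Plk4* from -0.61 to 0.11 (0.05 without E3KO replicate 3) and *Ncaph* from -0.35 to 0.16. *Ncaph* became 0.052 with centred libraries, and with single libraries left out it was positive at 0.051 (ECtrl replicate 1), 0.0019 (EfCtrl replicate 1), 0.13 (E3KO replicate 2) and 0.16 (E3KO replicate 3). FPKM without counts gives no sampling error, and levels near 0 cannot be resolved.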
